A study of Homo sapiens with 12 samples.

Results

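Small nucleolar RNAs and small Cajal body RNAs were followed in KELLY cells given a BPS2, a BPS1 or a control morpholino oligonucleotide. The RNAs were the rows of the deposited table whose symbol begins with SNORA, SNORD or SCARNA and a number and whose mean over the 12 libraries was at least 10 normalized counts. Of the 55771 genes in the table, 445 had such a symbol and 46 reached that mean. They comprised 22 H/ACA RNAs (SNORA), 20 C/D RNAs (SNORD) and 4 Cajal body RNAs (SCARNA). The members were chosen by their mean level alone over all libraries, so their abundance is a description. The choice was made with earlier results of these data known. The RNAs nearest the minimum were SNORA55 (mean 10.7) and SNORD12B (10.9) inside it, and SNORA3B (9.90) and SNORA79B (9.77) outside it.

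KELLY is an established human neuroblastoma line. Every group received a morpholino, an uncharged antisense molecule, complexed with a DNA leash and lipid at 50 nM for 48 h, and each group had 4 libraries. The control libraries thus carried an oligonucleotide too, and no untreated cells were among the groups. RNA was total RNA depleted of ribosomal RNA, with a strand-specific kit and single reads of 100 bases. The series set out to follow transcripts once the long NEAT1 isoform, NEAT1_2, and paraspeckles had been raised. Nothing in the labels states that replicate libraries came from separate cultures. A p-value here therefore reflects library-to-library spread, which may be technical. The BPS2 columns were matched by sample title, since their description uses another name, KPAS, and every BPS2 value rests on that match.

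Small nucleolar RNAs pair with other RNAs and position a protein complex on them. C/D RNAs guide methylation of the ribose and H/ACA RNAs guide the conversion of uridine to pseudouridine, mostly in ribosomal RNA. A few, among them U3 (SNORD3) and E1 or U17 (SNORA73), instead take part in the cleavage and folding of the ribosomal RNA precursor. Cajal body RNAs guide the same modifications on the RNAs of the spliceosome. In vertebrates most of them are released from the introns of host genes, while U3 has promoters of its own.

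The sequences of 8 RNAs are shown, from GENCODE release 29 transcripts on GRCh38, in the sense of the RNA with T for U. The U3 copies come first because the 1 RNA that passed the test is one of them. SNORD3A (chr17:19188016-19188232, plus strand), SNORD3C (chr17:19190029-19190245, minus strand) and SNORD3B-1 (chr17:19061912-19062128, plus strand) are given as the shortest annotated transcript of each gene, of 217 bases. Capitals mark the bases at which the copies differ.
SNORD3A: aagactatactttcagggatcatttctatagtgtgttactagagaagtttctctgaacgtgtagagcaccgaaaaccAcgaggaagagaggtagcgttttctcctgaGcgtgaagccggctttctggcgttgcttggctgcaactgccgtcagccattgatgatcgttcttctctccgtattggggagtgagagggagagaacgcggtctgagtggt
SNORD3C: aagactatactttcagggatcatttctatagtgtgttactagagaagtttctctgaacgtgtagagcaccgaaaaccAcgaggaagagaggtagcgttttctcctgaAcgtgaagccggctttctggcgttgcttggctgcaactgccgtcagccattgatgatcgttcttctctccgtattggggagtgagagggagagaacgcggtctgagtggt
SNORD3B-1: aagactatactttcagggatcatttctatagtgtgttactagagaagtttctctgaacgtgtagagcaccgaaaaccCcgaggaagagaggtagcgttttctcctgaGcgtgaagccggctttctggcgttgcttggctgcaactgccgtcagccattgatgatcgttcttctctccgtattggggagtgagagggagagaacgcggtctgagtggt
Counted from 1 at the 5′ end of SNORD3A, SNORD3C differed by G108A and SNORD3B-1 by A78C, and each differed from SNORD3A at 1 position of 217. A read of 100 bases from within these 217 bases that misses these positions carries no information on which copy it came from. The genes also have longer annotated transcripts, of up to 699, 581 and 758 bases for SNORD3A, SNORD3C and SNORD3B-1. Their other bases were not compared.

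The other sequences show 1 C/D RNA, 2 H/ACA RNAs and 2 Cajal body RNAs whose levels are described below. SNORD104 (chr17:64146083-64146152, plus strand) had the highest normalized count per annotated length, and capitals mark the first TGATGA and the last CTGA. SCARNA12 (chr12:6967337-6967606, minus strand) has the same marks.
SNORD104: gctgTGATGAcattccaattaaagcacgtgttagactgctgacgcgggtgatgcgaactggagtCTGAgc
SCARNA12: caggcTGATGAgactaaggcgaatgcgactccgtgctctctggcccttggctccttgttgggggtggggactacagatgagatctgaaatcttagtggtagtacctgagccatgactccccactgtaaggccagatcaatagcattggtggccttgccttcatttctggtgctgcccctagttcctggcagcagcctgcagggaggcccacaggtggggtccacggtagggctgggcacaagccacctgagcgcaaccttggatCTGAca
SNORA33 (chr6:132817219-132817348, plus strand), SNORA73B (chr1:28508559-28508762, plus strand) and SCARNA13 (chr14:95533355-95533629, minus strand) have capitals at the last ACA.
SNORA33: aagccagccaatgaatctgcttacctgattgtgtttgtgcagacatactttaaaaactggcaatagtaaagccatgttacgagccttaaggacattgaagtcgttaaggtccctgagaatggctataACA
SNORA73B: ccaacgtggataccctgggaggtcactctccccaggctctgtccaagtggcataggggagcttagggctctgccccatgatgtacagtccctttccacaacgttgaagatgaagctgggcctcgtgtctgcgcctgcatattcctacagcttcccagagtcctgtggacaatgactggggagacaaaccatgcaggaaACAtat
SCARNA13: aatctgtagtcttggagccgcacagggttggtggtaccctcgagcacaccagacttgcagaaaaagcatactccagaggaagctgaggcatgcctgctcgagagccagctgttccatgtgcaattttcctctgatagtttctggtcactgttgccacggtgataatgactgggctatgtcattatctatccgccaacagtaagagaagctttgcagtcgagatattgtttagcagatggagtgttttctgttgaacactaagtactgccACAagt
The sense strand was searched for these letters, which spell the C box (TGATGA), the D box (CTGA) and the ACA box. Of the C/D RNAs studied, 14 of 20 held TGATGA and 20 of 20 held CTGA in the last 20 bases, against 77.1% and 96.3% of all 271 C/D rows with a sequence. ACA stood in the last 8 bases of 20 of the 22 H/ACA RNAs and in 90.8% of all 141 H/ACA rows with a sequence. A match describes letters in the annotated transcript only.

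Most of the 445 small RNA rows had few reads or none. In 197 of them every library was at 0, comprising 171 of 277 C/D rows, 26 of 144 H/ACA rows and 0 of 24 Cajal body rows. The deposited totals were 29.6 to 33.3 M normalized counts per library, and 1 read was worth 0.940 to 1.09. Length went with detection: 14 of 240 rows shorter than the 100-base read reached the mean of 10 (5.83%), against 32 of 196 longer rows (16.3%). All 14 short members were C/D RNAs. Length also went with class, with medians over all rows of 82 bases for C/D, 134 for H/ACA and 141.5 for Cajal body RNAs. The parts of length, class, read length and library type in these levels cannot be told apart and were not tested. A level given here is only that of the reads recovered from a small RNA.

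Of the 46 RNAs, 6 had a mean of at least 50, 17 lay between 20 and 50, and 23 between 10 and 20. Per kilobase of annotated transcript, SNORD104 stood highest with 1856 normalized counts per kb. SCARNA12 followed with 587, SNORD63B with 386, SNORD36C with 385 and SNORA70 with 376. SNORD104, SNORD63B and SNORD36C guide ribose methylation of 28S ribosomal RNA, and SCARNA12 (U89) is a composite guide with both kinds of box that acts on U5. The medians per kb were 222 for C/D, 170 for Cajal body and 129 for H/ACA RNAs. Of the 20 C/D RNAs 14 were shorter than the 100-base read, among them SNORD104, SNORD63B and SNORD36C at 70, 70 and 66 bases. For these a count per length cannot be compared with that of longer RNAs. SNORD3A had 188 per kb over its longest annotated transcript, of 699 bases. Over its shortest, of 217 bases, the value would be higher. The ranking and the medians thus depend on the length used.

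Several RNAs with textbook roles were near or at 0. SNORD118 (U8), needed for 5.8S and 28S processing in Xenopus, averaged 0.664 normalized counts, and SNORD13 (U13) averaged 0.0811. SCARNA2 and SCARNA17 averaged 1.61 and 0.587. SNORD14A, a copy of U14, averaged 9.35 and fell just short of the minimum. SNORD14E averaged 2.92, while SNORD14B, SNORD14C and SNORD14D were listed at 0. The 48 rows of the SNORD115 cluster, from the Prader-Willi region, summed to at most 0.946 in any library, and the 30 rows of SNORD116 summed to 3.05 to 12.8. Levels this low do not show that the RNAs were missing from the cells.

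**Figure D1:**
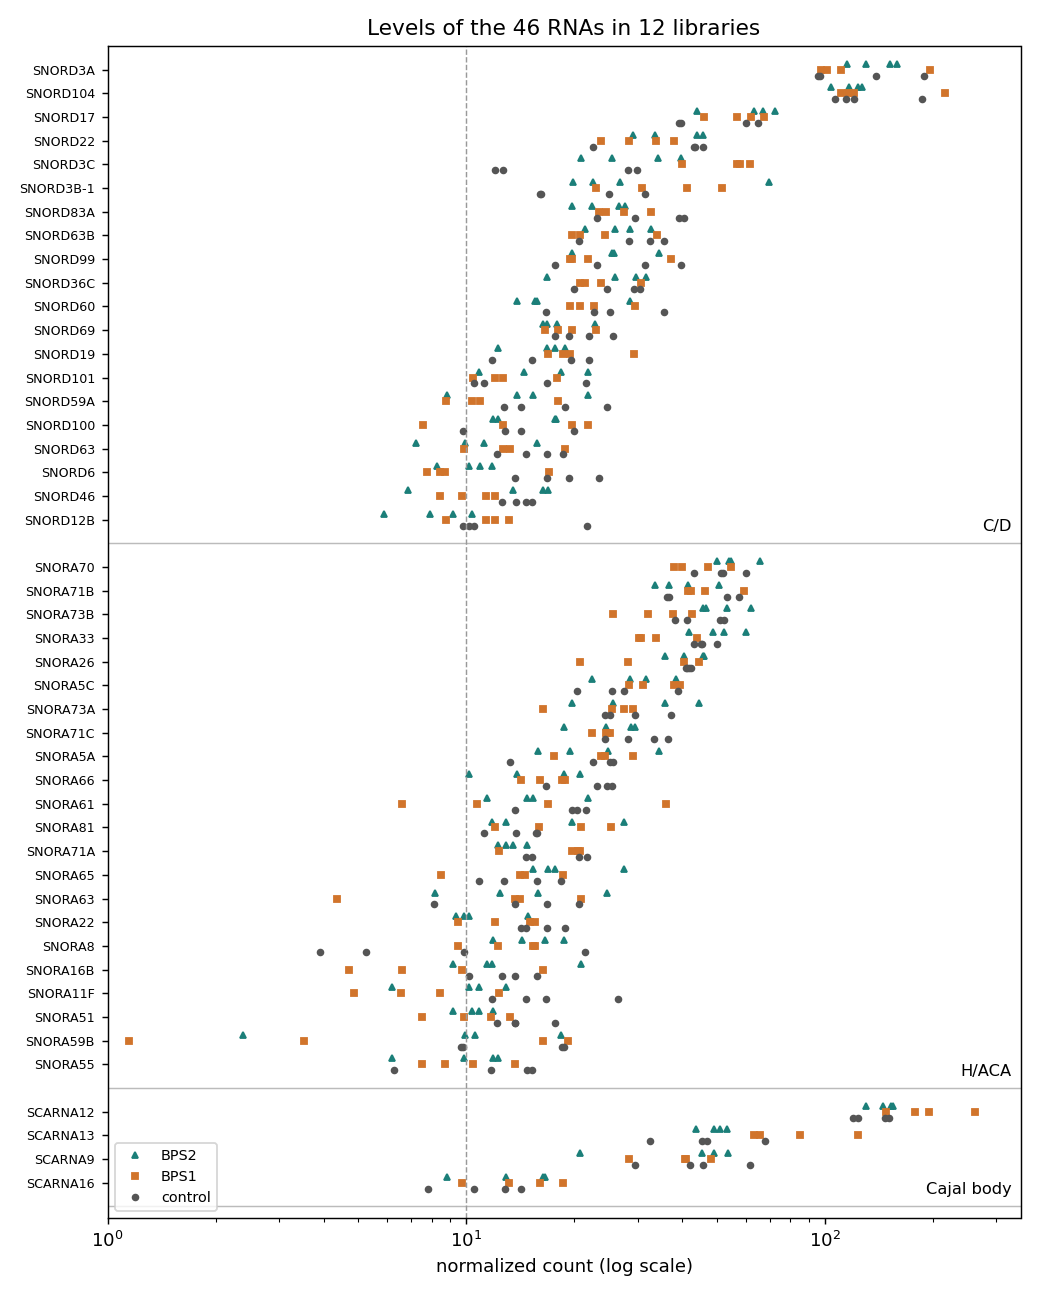
Level of each of the 46 RNAs in each of the 12 libraries, in normalized counts on a log axis, by class and ordered by mean within a class; triangles are BPS2, squares BPS1 and circles control libraries, and the dashed line marks 10. SNORD3A, SNORD104 and SCARNA12 lie near or above 100 in every library, and in most of the other RNAs the groups lie across one another.

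By annotation, 42 of the 46 RNAs lay inside a gene on the same strand, 30 of them in a protein-coding gene and 12 in a noncoding one. The other 4 were SNORD3A, SNORD3C, SNORD3B-1 and SNORA11F. Where several genes enclosed an RNA, only the one with the highest mean was counted and tested as its host. SNORA73A and SNORA73B, counted under RCC1, also lay inside SNHG3. SCARNA16, counted under SEC14L1, also lay inside SNHG20, and SNORD17, counted under SNX5, inside OVOL2. Reads of unspliced host RNA over the same bases cannot be told apart from the small RNA. For 13 RNAs an annotated transcript of a host, most often one with a retained intron, also covered the bases. A transcript of another gene, the host included, matched 16 of the 46 at 95% identity or more over at least 90% of their length, and for these the split of reads is uncertain.

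For 42 of the RNAs the value was a whole number of reads in all 12 libraries. The tolerance was 0.01 of a read at low counts and grew with the count at higher ones. The exceptions were SNORD3A, SNORD3C, SNORD3B-1 and SNORA59B, each with a near-identical copy. Over those 42, the variance between libraries of a group was a median of 1.39 times that expected from counting, and 24 were under 1.5 times. SNORD104 had the highest ratio, 9.35, and the 4 Cajal body RNAs had a median of 4.03. SNORA55 in control replicate 4 rested on 6 reads, with a 95% exact Poisson interval of 2.20 to 13.1, while SCARNA12 in BPS1 replicate 4 rested on 239 reads (210 to 271). These intervals cover counting error only, since reads of amplified libraries are not independent molecules.

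Of the 12 libraries, BPS1 replicate 4 and control replicate 1 stood apart across all genes. Their log2 values scattered around each gene's median with SDs of 0.594 and 0.471 over genes, against 0.377 to 0.425 in the others. BPS1 replicate 4 was the highest BPS1 library for 22 of the 46 RNAs, including 11 of 20 C/D and 3 of 4 Cajal body RNAs. Control replicate 1 was the highest control library for 17 of 46, including 3 of 4 Cajal body RNAs.

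BPS1 against control was tested with limma on log2(normalized count + 1) over 20454 genes, with Benjamini-Hochberg adjustment, and fold changes are on that scale. Of the 46 RNAs, 1 passed an adjusted p of 0.05, SNORD3C, where 8.60% of all genes passed. At an unadjusted p under 0.05 there were 7 of 46, against 22.5% of all genes. The groups did not overlap for 2, SNORD3C (higher in BPS1) and SNORD46 (lower), against 14.3% of all genes. Both counts lay below the background. The standard errors were also larger, with a median of 0.27 log2 units against 0.16 over all genes.

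SNORD3C, a U3 copy on chromosome 17, rose in BPS1 cells. It had 57.9, 56.6, 40.0 and 61.6 normalized counts in the BPS1 libraries, against 12.6, 28.2, 29.9 and 12.01 in the control libraries. Every BPS1 library lay above every control library. The log2 fold change was 1.44 ± 0.31 (SE, n = 4 each; limma, adjusted p = 0.0130). Leaving out each library in turn gave 1.23 to 1.65 and adjusted p-values of 0.0102 to 0.0386, and without both libraries that stood apart it was 1.19 (adjusted p = 0.0432). In bulk RNA, a change per cell and a change in the share of cells that hold the RNA cannot be told apart.

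The U3 copies as a whole did not separate in the same way. The sum of the 5 U3 rows was 206, 194, 177 and 321 in BPS1 libraries, against 230, 186, 148 and 140 in control libraries, and the groups overlapped. SNORD3A, the largest of the rows, had 97.6, 101, 110.4 and 195 in BPS1 libraries and 188, 139, 95.7 and 96.5 in control libraries. Its log2 fold change was -0.04 ± 0.25 (limma, adjusted p = 0.943), with -0.27 without BPS1 replicate 4 and 0.15 without control replicate 1. SNORD3C made up 28.1%, 29.2%, 22.6% and 19.2% of the U3 sum in BPS1 libraries, against 5.48%, 15.2%, 20.3% and 8.58% in control libraries. These shares overlapped, since BPS1 replicate 4 lay below control replicate 3. The copies differ by single bases over the 217 bases compared, and the values of SNORD3A and SNORD3C were not whole reads. The split between the copies is therefore uncertain, and so is the rise of SNORD3C as a separate RNA.

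**Figure D2:**
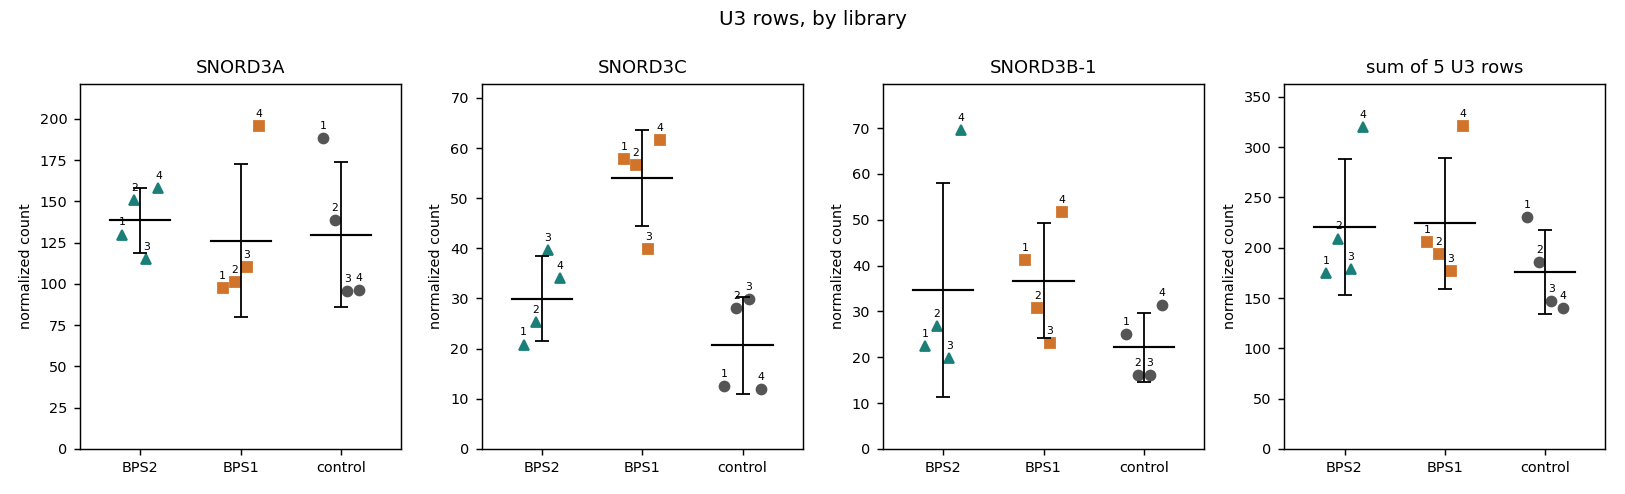
Normalized counts of SNORD3A, SNORD3C, SNORD3B-1 and the sum of 5 U3 rows in each library, numbered by replicate, with the group mean and SD (n = 4). SNORD3C is higher in all BPS1 libraries (40.0 to 61.6) than in the control libraries (12.01 to 29.9), while the U3 sums of the groups overlap.

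SNORD3B-1 had 41.3, 30.8, 23.0 and 51.7 in BPS1 libraries and 25.0, 16.1, 16.0 and 31.4 in control libraries, with overlap and a log2 fold change of 0.70 ± 0.38 (limma, adjusted p = 0.312). SNORD3B-2, with a mean of 9.22, was no member and SNORD3D was near 0.

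SCARNA13 and SCARNA12 had the next smallest p-values after SNORD3C in BPS1 cells. None of the 4 Cajal body RNAs passed the test (2 had an unadjusted p under 0.05). SCARNA13 (U93), a tandem H/ACA guide for spliceosomal RNA, had 85.2, 65.8, 63.2 and 123.5 in BPS1 libraries, against 68.1, 45.2, 47.0 and 32.5 in control libraries. Its groups overlapped through control replicate 1. The log2 fold change was 0.79 ± 0.24 (limma, adjusted p = 0.0586), with 0.0244 to 0.150 as libraries were left out in turn. Without both libraries that stood apart it was 0.77 (adjusted p = 0.0190), which is past the threshold.

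SCARNA12 had 147.6, 195, 178 and 261 in BPS1 libraries, against 150.5, 147, 119 and 124 in control libraries. Only BPS1 replicate 1 lay within the control range. On the log2 scale the difference was 0.51 ± 0.16 (limma, adjusted p = 0.0673), and 0.41 without both libraries that stood apart (adjusted p = 0.0649). The adjusted p was 0.0264 to 0.170 as libraries were left out in turn, and 3 of 24 alternatives passed. SCARNA16, a guide for U1, and SCARNA9, a guide for U2, had log2 fold changes of 0.31 ± 0.29 and -0.15 ± 0.30 (limma, adjusted p = 0.574 and 0.819). Both overlapped between the groups.

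Summed, the 4 Cajal body RNAs had 289.6, 322, 292 and 432 in BPS1 libraries, against 279, 234, 236 and 208 in control libraries, a ratio of means of 1.39 with no overlap. Without SCARNA12 the other 3 summed to 141.9, 127, 114 and 170.5 in BPS1 libraries, against 128, 87.5, 116 and 84.9 in control libraries, a ratio of 1.33 with overlap. The 20 Cajal body rows under the minimum, which were not chosen, summed to 72.8, 49.8, 56.4 and 71.0 in BPS1 libraries and 32.5, 29.5, 38.1 and 45.1 in control libraries. That ratio was 1.72, again with no overlap, and 11 of the 20 rows had a higher mean in BPS1. A rise of scarce rows was not confined to this class. All 399 rows under the minimum summed to 501.4 to 588.0 in BPS1 and 456.1 to 500.9 in control libraries. Their ratio was 1.15, also with no overlap, with 1.19 for the H/ACA rows and 0.966 for the C/D rows under the minimum. Sums were not tested. BPS1 replicate 4 gave the highest of the first sums, and without it and control replicate 1 the log2 ratio of the member sums was 0.41, against 0.48 with all libraries.

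The hosts of SCARNA13 and SCARNA12 differed by less than their spread. SNHG10, the noncoding host of SCARNA13, averaged 404 ± 109 in BPS1 and 396 ± 102 in control libraries (SD, n = 4 each), a log2 fold change of 0.03 ± 0.19 (limma, adjusted p = 0.951). PHB2, which encodes prohibitin-2 and hosts SCARNA12, averaged 12868 ± 2756 in BPS1 and 12536 ± 1428 in control libraries, a log2 fold change of 0.02 ± 0.12 (limma, adjusted p = 0.942). The difference between an RNA and its host was not itself tested.

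H/ACA RNAs tended to lie lower in BPS1 cells, and none of the 22 passed the test (3 had an unadjusted p under 0.05). The median log2 fold change was -0.28 for H/ACA, -0.12 for C/D and 0.41 for Cajal body RNAs, against -0.00036 over all genes tested. It was above 0 for 6 of 22 H/ACA, 6 of 20 C/D and 3 of 4 Cajal body RNAs, against 50.0% of all genes. The summed level of the H/ACA members was 436, 464, 495 and 501 in BPS1 libraries, against 538, 559.6, 516 and 544 in control libraries. These sums did not overlap and their means stood in a ratio of 0.879. The 122 H/ACA rows under the minimum went the other way, with sums of 283, 269, 350.2 and 338 in BPS1 libraries and 271, 242, 247 and 279.8 in control libraries, a ratio of 1.19 with overlap. Over all 144 H/ACA rows the ratio was 0.981. The C/D members summed to 663, 646, 601 and 877 in BPS1 libraries and 797, 706, 589 and 633 in control libraries, with overlap and a ratio of 1.02.

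**Figure D3:**
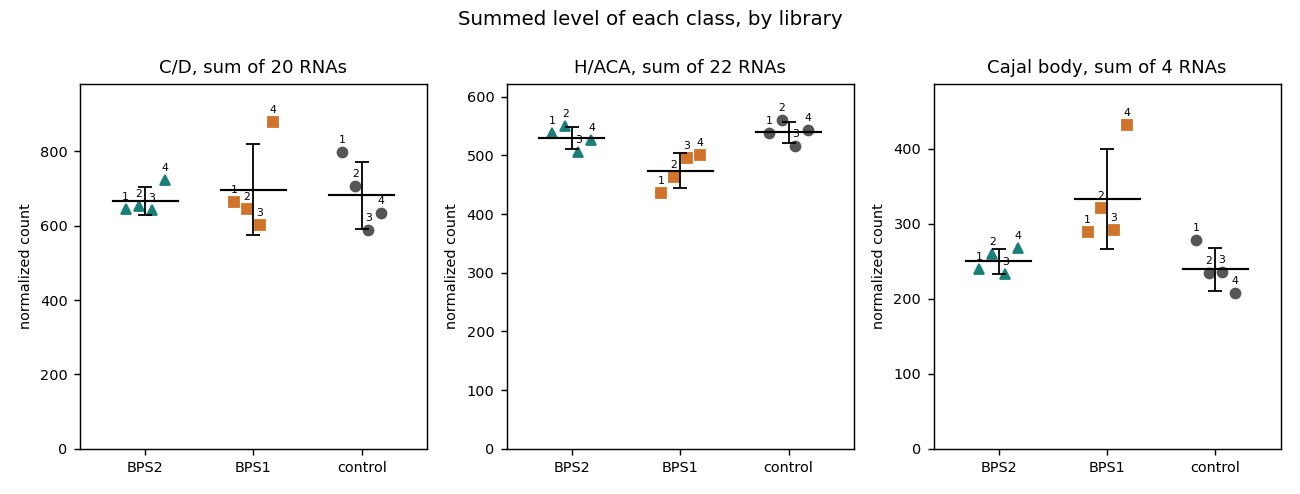
Summed normalized counts of the members of each class in each library, numbered by replicate, with the group mean and SD (n = 4). The H/ACA sums of BPS1 (436 to 501) lie below and the Cajal body sums (289.6 to 432) above those of the control libraries (516 to 559.6 and 208 to 279), and the C/D sums overlap.

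SNORA33, an H/ACA RNA from an intron of RPS12, had 30.3, 33.8, 43.8 and 30.6 in BPS1 libraries, against 49.8, 45.2, 45.0 and 43.0 in control libraries. All but BPS1 replicate 3 lay below the control libraries. The log2 fold change was -0.41 ± 0.16 (limma, adjusted p = 0.159). RPS12, a ribosomal protein gene, had one of -0.19 ± 0.14 (adjusted p = 0.481).

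SNORA73B and SNORA73A are the copies of E1, which takes part in ribosomal RNA processing. SNORA73B had 25.5, 37.6, 32.1 and 42.6 in BPS1 libraries and 50.8, 41.3, 38.2 and 52.4 in control libraries, with a log2 fold change of -0.41 ± 0.19 (limma, adjusted p = 0.220). SNORA73A had 27.4, 25.4, 29.2 and 16.4 in BPS1 libraries and 24.4, 29.5, 37.2 and 25.1 in control libraries, with -0.24 ± 0.27 (adjusted p = 0.652). Each copy overlapped between the groups. Their sum of 53.0 to 63.0 in BPS1 libraries lay below the 70.8 to 77.5 in control libraries, a ratio of means of 0.790 that was not tested.

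The lowest fold changes belonged to scarce RNAs, and none passed. SNORA11F had 12.3, 8.46, 4.86 and 6.56 in BPS1 libraries and 26.4, 11.8, 16.6 and 14.7 in control libraries. BPS1 replicate 1 alone lay within the control range, and the log2 fold change was -1.03 ± 0.34 (limma, adjusted p = 0.0795; 0.0499 without BPS1 replicate 1). SNORA11F reached the mean of 10 through the control libraries, with means of 10.03 in BPS2, 8.05 in BPS1 and 17.4 in control libraries, so its choice favours a lower level outside the controls. SNORA59B, an H/ACA RNA with a near-identical copy, spanned 1.15 to 19.2 in BPS1 libraries and 9.67 to 18.8 in control libraries, with -0.92 ± 0.70 (adjusted p = 0.484). That value was -1.39 without BPS1 replicate 4 and -0.31 without BPS1 replicate 1. SNORD6, a C/D guide for 28S ribosomal RNA, had 17.0, 8.46, 7.78 and 8.74 in BPS1 libraries and 19.3, 16.7, 23.5 and 13.6 in control libraries. Its log2 fold change was -0.79 ± 0.28 (limma, adjusted p = 0.108), and -1.02 without BPS1 replicate 1, the high one (adjusted p = 0.0331).

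Other abundant RNAs overlapped between the groups. SNORD104 had 120.2, 116, 111 and 215 in BPS1 libraries and 186, 120.0, 107 and 114 in control libraries, with a log2 fold change of 0.07 ± 0.22 (limma, adjusted p = 0.889), with -0.15 without BPS1 replicate 4 and 0.25 without control replicate 1. In each group 1 library, of the pair that stood apart, lay far above the other 3. SNORD17, a guide for 28S ribosomal RNA, averaged 58.2 ± 9.3 in BPS1 and 50.9 ± 13.5 in control libraries. SNORD22 (U22), needed for 18S processing in Xenopus, averaged 31.0 ± 6.2 in BPS1 and 38.6 ± 10.8 in control libraries. SNORA70, which guides pseudouridylation of 18S ribosomal RNA, averaged 44.9 ± 7.6 in BPS1 and 51.5 ± 7.0 in control libraries. Of the other abundant H/ACA RNAs, SNORA71B averaged 47.4 ± 8.2 in BPS1 and 45.9 ± 11.1 in control libraries. SNORA26 averaged 33.5 ± 10.97 in BPS1 and 41.5 ± 0.65 in control libraries, and SNORA5C 34.2 ± 5.3 in BPS1 and 28.0 ± 7.8 in control libraries (SD, n = 4 each).

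**Figure D4:**
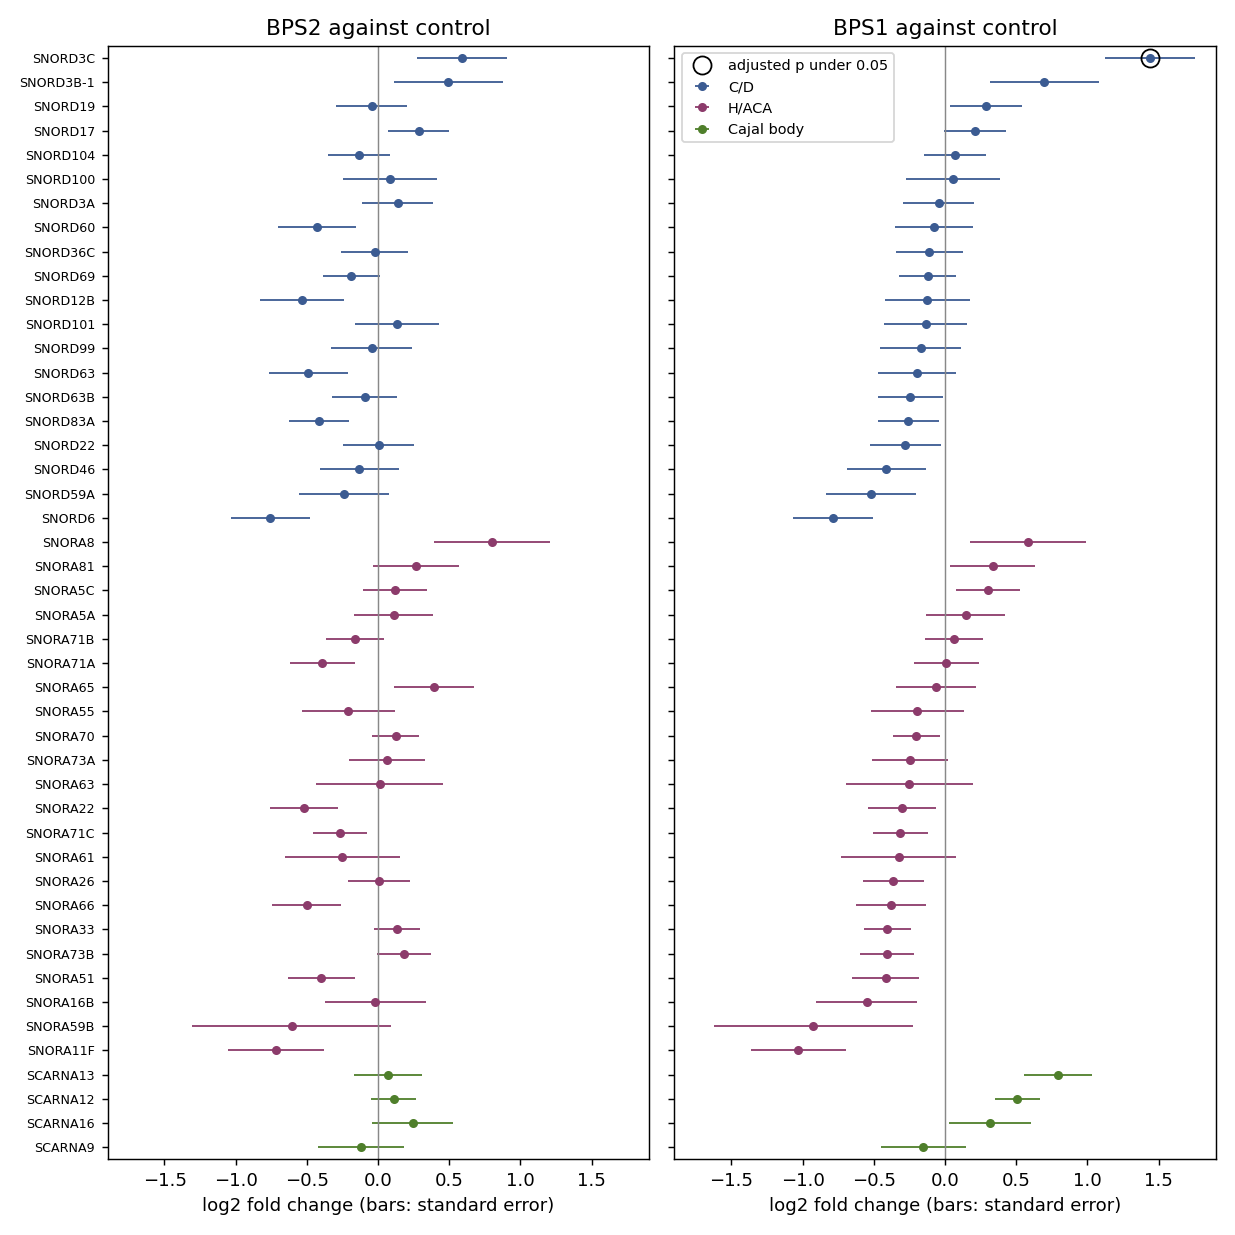
Log2 fold change of each of the 46 RNAs with its standard error, for BPS2 against control (left) and BPS1 against control (right), by class and ordered by the BPS1 value. The circled point, SNORD3C in BPS1 at 1.44, is the single one with an adjusted p under 0.05; both panels use the same control libraries.

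For BPS2 against control, limma called 0 of the 46 RNAs at an adjusted p of 0.05, where 1.21% of all genes passed. At an unadjusted p under 0.05 there were 2 of 46, SNORA22 and SNORD6, against 11.4% of all genes. Without both libraries that stood apart 1 RNA passed, SNORA8, in a fit where 1923 of all genes passed, against 247 with all libraries. The groups did not overlap for 2 RNAs, SNORD6 and SNORA51, both lower in BPS2, against 9.65% of all genes. The median log2 fold change over the 46 was -0.035, against 0.0025 over all genes, and 21 of 46 were above 0, against 50.6% of all genes.

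SNORD6 had 10.9, 11.8, 8.29 and 10.2 normalized counts in BPS2 libraries, against 19.3, 16.7, 23.5 and 13.6 in control libraries. Every BPS2 library lay below every control library. The log2 fold change was -0.76 ± 0.28 (limma, adjusted p = 0.300). BPS2 replicate 3 rested on 8 reads, with a 95% exact Poisson interval of 3.45 to 15.8, which holds the lowest control value. TAF1D, the host of SNORD6 and SNORA8, averaged 5862 ± 267 in BPS2 and 5818 ± 537 in control libraries (SD, n = 4 each).

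SNORA51, an H/ACA RNA from NOP56, the gene of a core C/D protein, had 11.9, 10.8, 10.4 and 9.18 in BPS2 libraries and 12.2, 17.7, 13.7 and 13.6 in control libraries. The groups nearly met at 11.9 and 12.2, and the log2 fold change was -0.40 ± 0.24 (limma, adjusted p = 0.581). SNORA22 had 14.9, 9.84, 9.33 and 10.2 in BPS2 libraries and 14.2, 16.7, 14.7 and 18.9 in control libraries, with -0.52 ± 0.24 (adjusted p = 0.436). BPS2 replicate 1 alone lay within its control range.

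The highest fold changes in BPS2 did not pass either. SNORA8 had 11.9, 18.7, 16.6 and 14.3 in BPS2 libraries and 21.4, 9.84, 3.91 and 5.24 in control libraries. Control replicate 1 lay above every BPS2 library and the other control libraries below, and the log2 fold change was 0.80 ± 0.41 (limma, adjusted p = 0.495; 1.22 with adjusted p = 0.0400 without both libraries that stood apart). SNORD3C had 20.8, 25.4, 39.6 and 34.1 in BPS2 libraries, overlapping the control libraries, with 0.59 ± 0.31 (adjusted p = 0.519). SNORD3B-1 had 22.5, 26.9, 19.8 and 69.5, with 0.49 ± 0.38 (adjusted p = 0.698), and 0.10 without BPS2 replicate 4. BPS2 replicate 4 was high for both 3B copies, with 58.2 for SNORD3B-2 against 0 to 12.2 in the 11 other libraries.

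Next to SNORD6, the lowest fold changes in BPS2 belonged to SNORA11F and SNORA59B, and neither passed. SNORA11F had 12.9, 10.8, 6.22 and 10.2 in BPS2 libraries, against the control values given above, with overlap and a log2 fold change of -0.72 ± 0.34 (limma, adjusted p = 0.446). SNORA59B had 9.91, 2.38, 18.3 and 10.6, with overlap and -0.61 ± 0.70 (adjusted p = 0.814), which became -0.11 without BPS2 replicate 2.

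The class sums of BPS2 overlapped those of the controls. H/ACA members summed to 538, 549.6, 507 and 526 in BPS2 libraries (ratio to control 0.983), C/D members to 646, 653, 643 and 724 (0.978) and Cajal body members to 239.7, 259.8, 233 and 268 (1.05). The Cajal body rows under the minimum stood in a ratio of 0.915.

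For BPS2 against BPS1, limma called 0 of 46 RNAs at an adjusted p of 0.05, where 3.93% of all genes passed. At an unadjusted p under 0.05 there were 5 of 46 (SNORA33, SNORA73B, SCARNA13, SCARNA12 and SNORD3C), against 17.1% of all genes. Without both libraries that stood apart 1 RNA passed, SNORA73B, in a fit where 3498 of all genes passed, against 803 with all libraries. The groups did not overlap for 3, SNORA73B (higher in BPS2), SCARNA13 and SNORD3C (lower), against 11.9% of all genes. The log2 fold change was above 0 for 26 of 46, against 49.6% of all genes. This comparison uses the same BPS1 libraries as the one above.

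SNORA73B had 46.6, 53.1, 45.6 and 62.2 in BPS2 libraries, against 25.5, 37.6, 32.1 and 42.6 in BPS1 libraries. Its log2 fold change was 0.59 ± 0.19 (limma, adjusted p = 0.112), and 0.70 (adjusted p = 0.0409) without BPS1 replicate 4, the highest BPS1 library. SNORA33 had 41.6, 52.2, 48.7 and 60.2 in BPS2 libraries, overlapping BPS1 through BPS1 replicate 3, with 0.54 ± 0.16 (adjusted p = 0.0948). SNORA16B had 20.8, 11.8, 11.4 and 9.18 in BPS2 libraries and 6.62, 4.70, 9.73 and 16.4 in BPS1 libraries, with 0.53 ± 0.36 (adjusted p = 0.502). SNORD12B, a C/D guide for 28S ribosomal RNA, had 7.92, 5.90, 10.4 and 9.18 in BPS2 libraries and 11.4, 13.2, 8.76 and 12.02 in BPS1 libraries, with -0.41 ± 0.30 (adjusted p = 0.543). SNORA16B and SNORD12B overlapped between the groups. In BPS2, BPS1 and control libraries SNORA16B averaged 13.3, 9.36 and 13.0, and SNORD12B averaged 8.34, 11.3 and 13.0. Each reached the mean of 10 through the groups where it was higher, so its choice favours a lower level in the remaining group.

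SCARNA13 had 43.6, 53.1, 50.8 and 49.0 in BPS2 libraries, all below the BPS1 libraries, with a log2 fold change of -0.72 ± 0.24 (limma, adjusted p = 0.126). SCARNA12 had 129.8, 152.5, 145 and 154 in BPS2 libraries, overlapping BPS1 through BPS1 replicate 1, with -0.40 ± 0.16 (adjusted p = 0.213). SNORD3C was lower in every BPS2 library than in every BPS1 library, with 39.6 and 40.0 at the nearest, and the log2 fold change was -0.85 ± 0.31 (adjusted p = 0.174). The summed Cajal body level in BPS2 stood at 0.750 of that in BPS1, and the groups did not overlap.

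**Figure D5:**
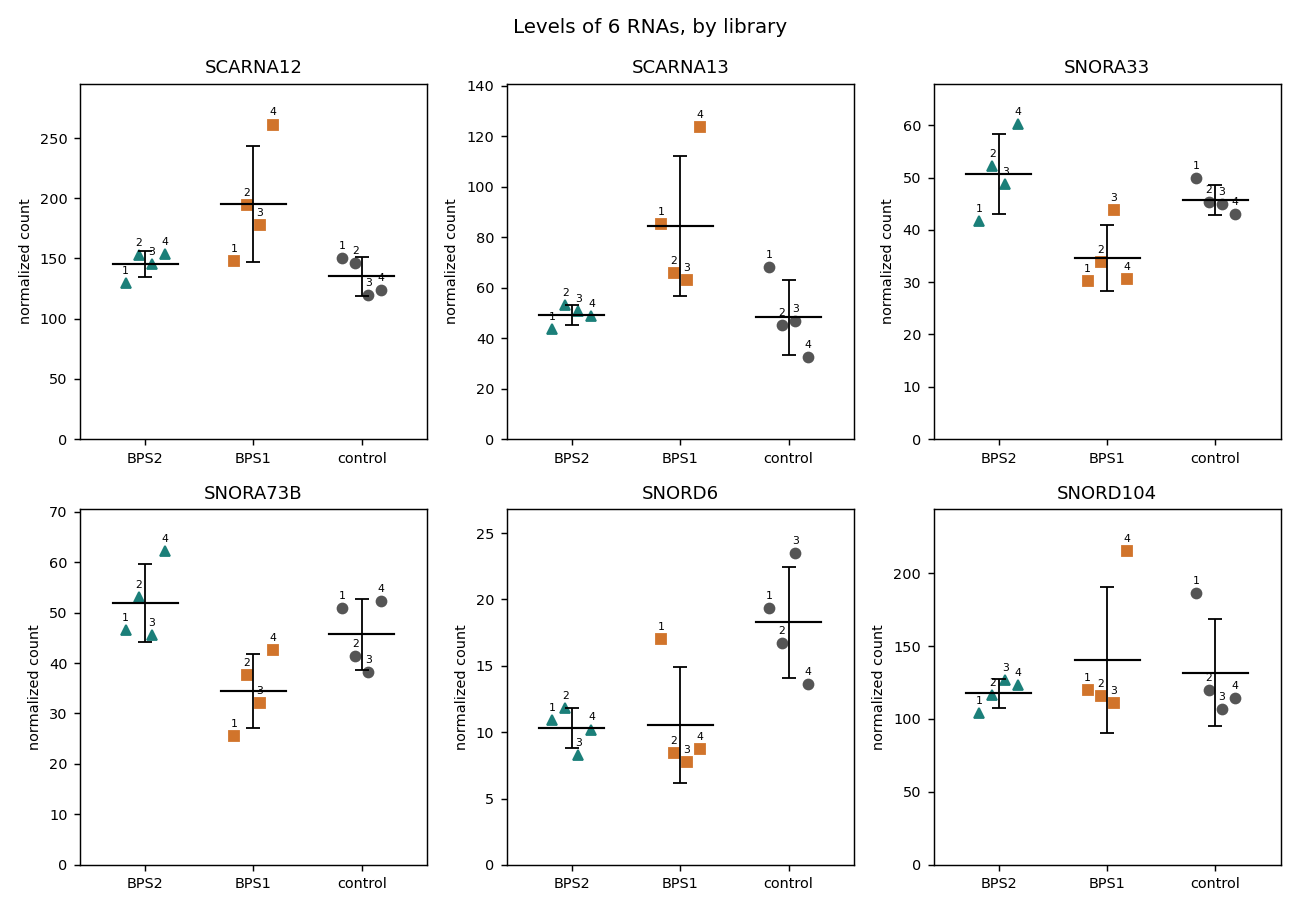
Normalized counts of SCARNA12, SCARNA13, SNORA33, SNORA73B, SNORD6 and SNORD104 in each library, numbered by replicate, with the group mean and SD (n = 4). BPS1 replicate 4 is the highest library for SCARNA12 (261), SCARNA13 (123.5) and SNORD104 (215).

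A list of genes for the proteins that carry and mature these RNAs was tested in the same fit. It took the C/D core (FBL, the methyltransferase fibrillarin, with NOP56, NOP58 and SNU13), the H/ACA core (DKC1, the pseudouridine synthase dyskerin, with NHP2, NOP10 and GAR1), and factors for assembly, Cajal bodies, trimming and debranching. Of 31 genes 30 were tested, and 1 rose and 0 fell in BPS2 and likewise in BPS1 against control, where 1.21% of all genes passed in BPS2 and 8.60% in BPS1. For BPS2 against BPS1 limma called 0 of the 30, where 3.93% of all genes passed, and 0 had an unadjusted p under 0.05, against 17.1%. Library weights called 3 of the 30 and 3626 of all genes. The omission of both libraries that stood apart called 5 of the 30 and 3498 of all genes, against 803 in the main fit. Of the 8 core genes, 0 passed in any comparison and 0 had an unadjusted p under 0.05. The median log2 fold change of the 30 was 0.031 in BPS2 and 0.048 in BPS1.

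The gene that rose was SMN2, a copy of the gene for the survival motor neuron protein of Cajal bodies. It averaged 2115 ± 94 in BPS2, 2040 ± 261 in BPS1 and 1502 ± 97 in control libraries (SD, n = 4 each). In log2 terms the change was 0.49 ± 0.09 in BPS2 (limma, adjusted p = 0.0167) and 0.44 ± 0.09 in BPS1 (adjusted p = 0.00936). The BPS2 call was lost when control replicate 2 or 3 or BPS2 replicate 2, 3 or 4 was left out, with an adjusted p of up to 0.0698. SMN1 is nearly identical and averaged 778, 747 and 843 in BPS2, BPS1 and control libraries, with log2 fold changes of -0.10 and -0.17, so the split between the copies is uncertain. RUVBL1 and RUVBL2, helicases of complex assembly, had log2 fold changes of 0.31 and 0.32 in BPS1 (adjusted p = 0.0949 and 0.0817).

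Of the 31 host genes, 3 rose and 2 fell in BPS1, 1 rose in BPS2, and 1 was higher in BPS2 than in BPS1. Of all genes, 8.60% passed in BPS1 against control, 1.21% in BPS2 against control and 3.93% in BPS2 against BPS1. EIF4A2, a translation initiation helicase that hosts SNORA81 and SNORA63, rose in both, with log2 fold changes of 0.52 ± 0.07 in BPS2 (limma, adjusted p = 0.00307) and 0.40 ± 0.07 in BPS1 (adjusted p = 0.00355). SNORA81 had log2 fold changes of 0.27 ± 0.30 and 0.34 ± 0.30 in BPS2 and BPS1, and SNORA63 had 0.010 ± 0.45 and -0.25 ± 0.45 (adjusted p from 0.564 to 0.997). The BPS1 value of SNORA63 was 0.16 without BPS1 replicate 4, and its BPS2 value -0.23 without control replicate 1. SLC47A1, a transporter gene that hosts SNORA59B, fell in BPS1 (-0.79 ± 0.13, adjusted p = 0.00225) and was higher in BPS2 than in BPS1 (1.080 ± 0.13, adjusted p = 0.000486).

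Calls of the remaining hosts did not outlast the omission of single libraries. SNX5, the host of SNORD17, had a log2 fold change of 0.23 ± 0.06 in BPS1 (limma, adjusted p = 0.0282). Its call was lost without control replicate 2, 3 or 4 or BPS1 replicate 2 or 3 (adjusted p up to 0.0796). TBRG4, the host of SNORA5A and SNORA5C, had 0.26 ± 0.07 (adjusted p = 0.0353) and lost its call without control replicate 2, 3 or 4, BPS1 replicate 2 or 3 or any BPS2 library (up to 0.0910). ZFAS1, the noncoding host of SNORD12B, had -0.53 ± 0.13 (adjusted p = 0.0290) and lost its call without replicate 1, 2 or 3 of either group (up to 0.0836). None of the RNAs from these genes passed the test.

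Genes of neuroblastoma identity were expressed in every library, and the 9 listed ranged from 415 to 134935 normalized counts. In BPS1 5 of the 9 fell, and in BPS2 1 did, where 8.60% of all genes passed in BPS1 and 1.21% in BPS2. Markers of other cells were low except the collagens: PTPRC of leukocytes averaged 6.73, 5.42 and 5.26 in BPS2, BPS1 and control libraries, none of the 5 was at 0, and COL1A1 rose in BPS2 (log2 fold change 0.46, limma adjusted p = 0.00706). The part of these differences in the small RNA levels was not tested.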

How the data were processed

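RNA-seq of 12 KELLY libraries, 4 per group, was taken from 1 table. The values the authors deposited are a signal, normalized counts by gene. FastQC 0.11.7, Salmon 0.8.2 and DESeq2, with the GRCh38 build, are listed in the submitters' processing notes, and the annotation release is not given in the sources used here. Totals were 29.6 to 33.3 M per library. Dividing them by the value of 1 read gave 29.1 to 31.8 M, an estimate of depth, where the labels give an average of 25 M.

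Values were taken as log2(value + 1), which understates the change of low genes, for the 20454 genes with at least 10 in at least 4 libraries. All 46 RNAs passed this filter. The 12 libraries entered a single limma fit (3.58.1, R 4.3.3; lmFit and eBayes with a trend) on group alone, and p-values are two-sided, with Benjamini-Hochberg adjustment over all genes tested. The fit was tested on simulated data. The members and lists were chosen with earlier results of these data known. Named RNAs are the 6 most abundant of each class, those called, and the 3 highest and 3 lowest fold changes per comparison. RNAs of ribosomal RNA cleavage and those nearest the minimum were named as well. SNORD46, SNORA51, SNORA22, SNORA63 and SNORA81 were named after their values were seen. So were SNORD63B and SNORD36C, for their count per length, and SNORD99, SNORD60 and SNORA71A, for a library flagged as an outlier. Positions, lengths and sequences are those of GENCODE 29 (GRCh38); 53405 of the 55771 identifiers matched it. Copies were found with BLAST 2.17.0. Alternatives covered pseudocounts, filters, scaling, variance, library weights, the replicate block, the groups fitted and the omission of libraries.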

Additional observations from a re-analysis of the deposited data

Results flagged for a closer look

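In groups of 4 libraries, the highest or lowest library was set against the rest by Dixon's ratio at its 95% critical value. Of 150 group tests 13 passed it, where chance gives about 1 in 20. BPS1 replicate 4 was the library in 4 of them. There SNORD104 had 215, against 111 to 120.2 in the other BPS1 libraries. SNORD3A had 195 (the others 97.6 to 110.4), SNORD99 had 37.2 (19.5 to 21.8), and the sum of all 46 RNAs was 1810.0 (1388 to 1431).

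Control replicate 1 had 186 for SNORD104, against 107 to 120.0 in the other control libraries. Control replicate 2 had 21.6 for SNORD12B (9.78 to 10.48), and control replicate 3 had 22.5 for SNORD22 (43.0 to 45.8).

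BPS2 replicate 4 had 69.5 for SNORD3B-1 (19.8 to 26.9 in the other BPS2 libraries), 28.6 for SNORD60 (13.9 to 15.7) and 724 for the C/D sum (643 to 653). BPS2 replicate 1 had 14.9 for SNORA22 (9.33 to 10.2). BPS1 replicate 1 had 12.3 for SNORA71A (19.7 to 20.7) and 17.0 for SNORD6 (7.78 to 8.74).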

How the results depend on the processing

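No RNA named for its change reversed under any alternative run. SCARNA9 in BPS1 (-0.15) reached 0.015 as libraries were left out, and the C/D sum ratio in BPS1 (log2 0.032) became -0.098 without BPS1 replicate 4. For the 46 RNAs in BPS1 against control, 1 passed the test; 0 passed at a minimum value of 50, where 8 RNAs were left to test and SNORD3C was not among them. Scaling by library total gave 3, library weights 3 and the omission of both libraries that stood apart 2, and leaving out each library gave 1 to 4. In BPS2 against control the omission of both libraries gave 1 in place of 0, and leaving out each gave 0 throughout. In BPS2 against BPS1 library weights gave 3 and the omission of both gave 1 in place of 0, with 0 to 1 as each was left out. SNORD3C in BPS1 passed in each of the 23 alternatives that tested it. Over the RNAs named for the size of their change, 405 of 417 alternative values kept their side of the threshold and 12 crossed it to pass. The 180 alternative ratios of class sums all moved by less than 1 SD, the larger of the compared groups' SDs of log2 sums. In comparisons with BPS1 that SD includes BPS1 replicate 4, which widens it. The change of sign of the C/D ratio in BPS1 lay within it.

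Over all genes, BPS1 against control gave 1760 calls, 3382 with library weights, 927 with those groups alone, 2772 without both libraries, and 1103 to 2359 as each was left out. BPS2 against control gave 247, then 1296, 1923 and 113 to 535 (with weights, without both, and leaving out each). BPS2 against BPS1 gave 803, then 3626, 3498 and 471 to 1756. Of the protein genes, BPS1 gave 1 call, 4 with total scaling, 5 with weights, 5 without both libraries and 1 to 2 as each was left out. BPS2 gave 1, then 3 with weights, 4 without both and 0 to 1; BPS2 against BPS1 gave 0, then 3 and 5. The cause was not tested.

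Replicate numbers gave no sign of pairing: deviations of same-numbered libraries correlated between -0.272 and 0.103, with 1 of 12 pairs over 0.1. The highest correlation between libraries of different groups was 0.424, for control replicate 1 with BPS1 replicate 4, which both stood apart. Their deviations enter the same-number values too, so these values cannot show that the libraries were unpaired. With the replicate number as a block, calls over all genes were 1067 (BPS1), 118 (BPS2) and 447 (BPS2 against BPS1), the RNAs called stayed at 1, 0 and 0, and SNORD3C in BPS1 had an adjusted p of 0.0351. With mean levels of 10 to 20 for 23 of the 46 RNAs, counting error limits what a difference can show.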
